A study of Mus musculus with 6 samples.

Results

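The 10 genes described here are genes of T cell receptor recognition and signalling, followed in mouse back skin: Cd3d, Cd3e, Cd3g and Cd247, which encode the CD3 and zeta chains of the receptor, the kinases Lck and Zap70, the coreceptors Cd4 and Cd8a, and the surface proteins Cd5 and Thy1. They were chosen by the gene name printed beside each probe in the 6 scanner files, which gave 18 of 41115 probes and 10 of 27310 named genes or transcripts. Of these, 9 genes were bright enough to test, among 17778 genes tested in all.

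The skin was taken whole from the backs of female C57BL/6J mice, an inbred strain, 6 to 8 weeks old, and profiled on single-colour Agilent arrays after 7 daily applications to the shaved back. The imiquimod group received 62.5 mg a day of a cream with 5% imiquimod, an agonist of the RNA sensor Tlr7 used in mice to model psoriasis, and the vehicle group the same amount of vehicle cream. Each group had 3 samples, and the labels do not say whether every sample is a different mouse. The p-values therefore rest on sample-to-sample spread alone, part of which may be technical.

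The records gave the treatment of an array in conflicting ways. Arrays are grouped here by the treatment word in the scanner file name, and 6 of 6 files so named matched the column of the deposited value table whose sample title has the same treatment and number, with Spearman correlations of at least 0.99999973 over 24253 probes. In 6 of 6 cases the scanner file was nevertheless filed under a sample of the other treatment, and read as filed every difference below has the opposite sign. By the scanner software's own call, 61.2% to 67.4% of the probes on each array exceeded background clearly, here called well above background. Slide 1 held imiquimod array 1 and the 3 vehicle arrays, and slide 2 held imiquimod arrays 2 and 3. Vehicle arrays 2 and 3 carry the quality status evaluate in their files. Pearson correlations over 24253 probes were 0.992 among the imiquimod arrays, 0.960 to 0.983 among the vehicle arrays and 0.942 to 0.954 between groups.

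The T cell receptor recognises peptide on MHC molecules through its variable chains and passes the signal inward through the CD3 and zeta chains, whose tails carry paired tyrosines known as immunoreceptor tyrosine-based activation motifs. Lck, held at the coreceptors Cd4 and Cd8a, phosphorylates these tyrosines, and Zap70 binds the phosphorylated motifs and passes the signal on to the adaptors Lat and Lcp2. Mouse skin holds gamma delta T cells in the epidermis and dermis as well as alpha beta T cells, and all of them carry CD3.

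The array reads these genes with 60-base probes, of which the following are shown because 2 hold the letters of the tyrosine motifs of the receptor tails, 1 reads Cd3g, the neighbour of Cd3d, and 1 carries the widest spread found among the 10 genes. Capitals mark TAC or TAT followed, after 6 bases of any kind, by CTN or TTG, searched on the printed strand alone, where matches may overlap. These letters spell a tyrosine codon followed at a set spacing by a leucine codon when they lie in the reading frame, which was not tested here.
Cd3d probe: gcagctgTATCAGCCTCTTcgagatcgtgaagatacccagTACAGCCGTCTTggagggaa
Cd247 probe across an exon junction: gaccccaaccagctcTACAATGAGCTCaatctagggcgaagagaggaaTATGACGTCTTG
Cd3g probe: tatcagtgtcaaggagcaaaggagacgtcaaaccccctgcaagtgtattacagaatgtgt
Cd4 probe with 10 spots: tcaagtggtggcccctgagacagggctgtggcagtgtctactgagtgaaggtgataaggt
The Cd3d and Cd247 probes each held 2 such stretches, as did 1.02% of the 41174 probes of 60 bases on the array. In mm9, the build of the array files, the Cd3d probe lay on chromosome 9 from 44794171 to 44794402 and the Cd3g probe from 44781716 to 44782300, on opposite strands. The Cd247 probe lay on chromosome 1 from 167786567 to 167787585. These 3 span more of the genome than their 60 bases, so each crosses at least 1 intron. The Cd4 probe lay on chromosome 6 from 124817706 to 124817765, without a gap. No exon annotation of that build was used here.

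Of the 9 genes tested, 1 rose in imiquimod skin, 1 fell and 7 did not pass at an adjusted p under 0.05 in limma with Benjamini-Hochberg adjustment over all genes. Over all 17778 genes tested, 13.1% were higher and 10.5% lower, 23.6% in either direction, and the median difference was 0.023 on the log2 scale. The median of the 9 genes was -0.43. Levels are log2 signals relative to the 75th percentile of the array, and each difference is imiquimod minus vehicle. The levels of different genes come from different probes and are not compared. As the samples are whole skin, fewer cells of a type and less RNA per cell cannot be told apart.

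**Figure D1:**
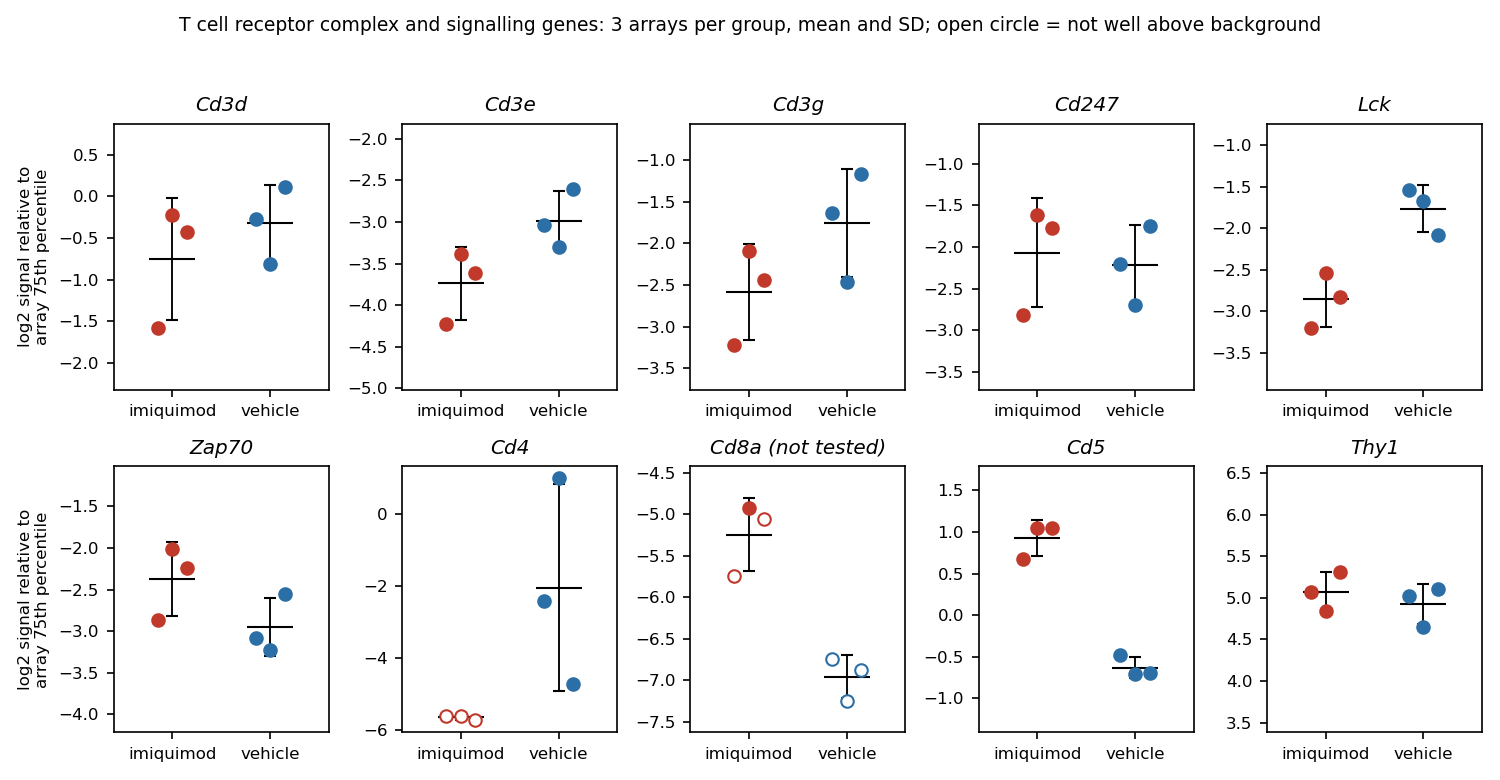
Log2 signal relative to the array's 75th percentile (vertical axes, each with its own range) for the 10 genes, with 1 point per array and the mean and SD of 3 arrays per group; open circles were not well above background. Cd5 lies higher and Lck lower on every imiquimod array, Cd4 is spread over the vehicle arrays from -4.72 to 1.00, and Cd3d, Cd3g, Cd247, Zap70 and Thy1 overlap between groups.

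The receptor chains come first. Cd3d, the delta chain, stood at -1.59, -0.23 and -0.43 in imiquimod arrays 1, 2 and 3, and at -0.27, -0.81 and 0.11 in the vehicle arrays. The groups overlapped, with imiquimod array 1 lowest. The means were -0.75 ± 0.73 in imiquimod and -0.32 ± 0.46 in vehicle (SD, n = 3 each), a difference of -0.43 (SE 0.42, 95% interval -1.45 to 0.60, adjusted p = 0.494 in limma).

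Cd3g, the gamma chain, stood at -3.22, -2.09 and -2.44 in the imiquimod arrays and at -1.64, -2.46 and -1.17 in the vehicle arrays. Its groups overlapped through vehicle array 2, which lay below imiquimod arrays 2 and 3. The difference was -0.83 (SE 0.42, 95% interval -1.86 to 0.20, adjusted p = 0.201).

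Cd3e, the epsilon chain that pairs with both delta and gamma, stood at -4.23, -3.38 and -3.61 in the imiquimod arrays and at -3.04, -3.31 and -2.61 in the vehicle arrays. Every imiquimod array lay below every vehicle array, by a narrow margin between imiquimod array 2 and vehicle array 2. The difference was -0.76 (SE 0.28, 95% interval -1.44 to -0.07, unadjusted p = 0.0357, adjusted p = 0.102 in limma) and did not pass after adjustment. A second Cd3e probe, to a transcript annotated with an apparent retained intron, was well above background on 0 of 6 arrays.

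Cd247, the zeta chain, stood at -2.82, -1.61 and -1.77 in the imiquimod arrays and at -2.20, -2.70 and -1.75 in the vehicle arrays. The groups overlapped over nearly their whole range, and the difference was 0.15 (SE 0.39, 95% interval -0.81 to 1.11, adjusted p = 0.807 in limma). This value came from a probe annotated to the zeta transcript. Of the 3 other Cd247 probes, the printed one was well above background on 1 of 3 imiquimod and 0 of 3 vehicle arrays, and the others on 0 arrays. The printed probe, at -5.94, -5.01 and -5.82 in the imiquimod arrays, shares its annotation, to the eta transcript, with another of these probes. Whether it reads that transcript alone was not tested.

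The 4 chains also shared differences between arrays of the same treatment. Centred on each gene's own mean, imiquimod array 1 was the lowest of its group in 4 of 4 chains, between -1.05 and -0.67, and vehicle array 2 was the lowest of its group in 4 of 4 chains. Over all genes tested, imiquimod array 1 was the lowest of its group in 38.9% and vehicle array 2 of its own in 41.2%. The mean profile of the 4 chains was -0.91, 0.22 and -0.01 in the imiquimod arrays and 0.27, -0.27 and 0.70 in the vehicle arrays. Imiquimod array 1 was also the only imiquimod array on slide 1. With the slide added to the fit as a blocking factor, which compares that array with the vehicle arrays beside it, the differences were -1.26 for Cd3d, -1.24 for Cd3e, -1.46 for Cd3g and -0.60 for Cd247, and none passed.

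**Figure D2:**
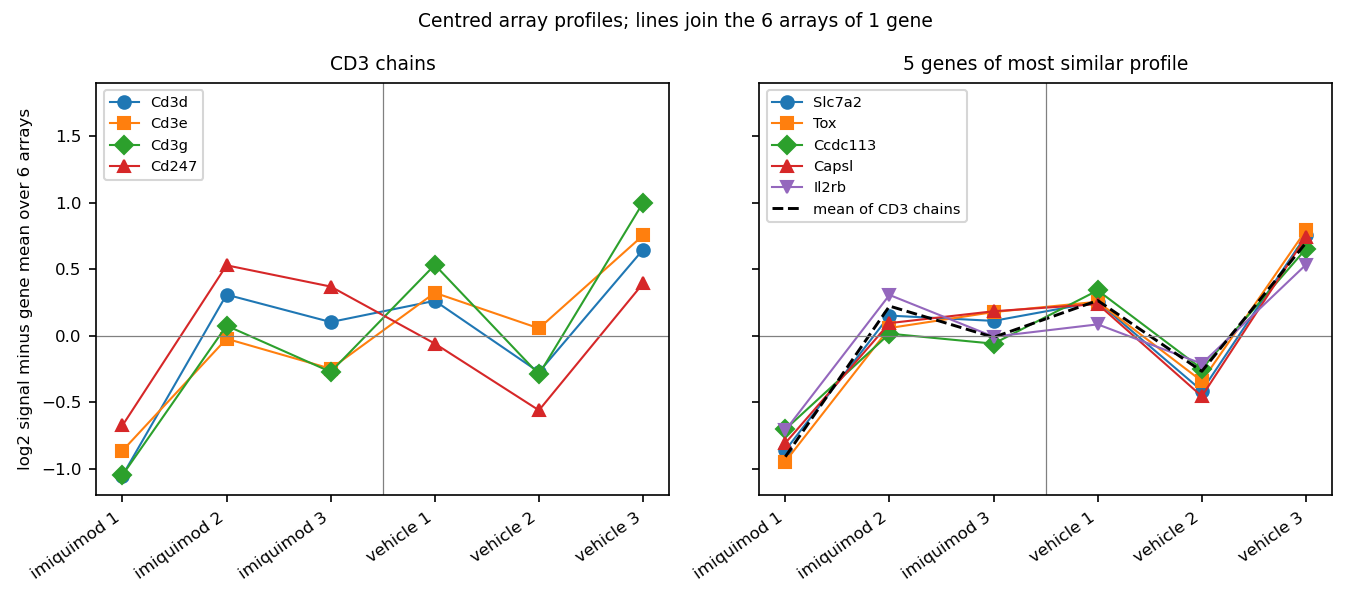
Log2 signal minus the gene's mean over 6 arrays (vertical axis) for the 4 CD3 and zeta chains (left) and for the 5 genes of most similar profile (right, dashed line: mean of the 4 chains), by array; lines only join the values of a gene. Imiquimod array 1 is the lowest array in each chain and vehicle array 3 is the highest vehicle array in each.

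The genes whose centred profile lay nearest to the mean of the 4 chains over the 6 arrays were Slc7a2, a cationic amino acid transporter, at a root mean square distance of 0.089 log2 units, and Tox, a nuclear factor of T cell development, at 0.11. Ccdc113 and Capsl followed at 0.13 each, and Il2rb, a shared receptor chain for interleukin-2 and interleukin-15, also at 0.13. The 4 chains make up that mean, so their own nearness to it is partly built in. Cd3d lay at 0.085, Cd3e at 0.20, Cd3g at 0.21 and Cd247 at 0.31. Of the genes outside the mean, Thy1 lay at 0.52, Lck and Zap70 at 0.54, Cd5 at 1.07 and Cd4 at 2.52. These distances were not set against that of a gene of flat profile. They therefore do not show that Thy1, Lck or Zap70 shared the pattern of the chains. None of the 5 genes of most similar profile, Slc7a2 to Il2rb, passed between treatments, with differences of -0.50 to -0.27. Likeness over 6 arrays is a description and carries no test.

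The genes of Cd3g and Cd3d lie head to head on chromosome 9, with 1337 bases between the annotated ends of the genes in GRCm38.p6. Their promoters, from RefSeq, are shown because these 2 neighbours had a like array pattern. That likeness was not particular to the pair. From the mean profile of the chains Cd3d lay at 0.085 and Cd3g at 0.21, against 0.20 for Cd3e and 0.089 for Slc7a2. Each window of 300 bases covers the start of the gene and mostly the bases before it, in the direction of transcription, and capitals mark GGAA or its complement TTCC, the core letters bound by ETS-family factors, on both strands.
Cd3d, chr9:44981536-44981835, plus strand: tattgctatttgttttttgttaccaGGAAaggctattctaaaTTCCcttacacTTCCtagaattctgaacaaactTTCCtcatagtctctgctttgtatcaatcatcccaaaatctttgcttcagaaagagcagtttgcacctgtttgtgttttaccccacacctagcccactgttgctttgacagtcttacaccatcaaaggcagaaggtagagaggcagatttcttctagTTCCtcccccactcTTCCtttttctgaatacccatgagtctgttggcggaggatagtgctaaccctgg
Cd3g, chr9:44980382-44980681, minus strand: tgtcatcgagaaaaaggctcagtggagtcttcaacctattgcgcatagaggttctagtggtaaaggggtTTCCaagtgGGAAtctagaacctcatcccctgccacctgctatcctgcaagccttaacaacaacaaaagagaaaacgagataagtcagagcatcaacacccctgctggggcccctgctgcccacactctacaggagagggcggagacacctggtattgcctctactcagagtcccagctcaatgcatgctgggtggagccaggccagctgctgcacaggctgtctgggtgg
The Cd3d window held 6 such cores and the Cd3g window 2, against a median of 3 over 32851 promoters, of which 96.0% held at least 1. Neither window held TATAAA on either strand, which 13.6% of promoters did. The windows of Cd3e, also on chromosome 9, and of Cd247 are not printed and held 5 and 2 cores of GGAA or TTCC. In all, 8 of the 10 genes matched the promoter table, in 11 windows.

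Of the 2 kinases, Lck, which phosphorylates the receptor tails, fell in imiquimod skin. It stood at -3.20, -2.53 and -2.83 in the imiquimod arrays and at -1.54, -1.67 and -2.08 in the vehicle arrays, and the groups did not overlap. Its mean was -2.85 ± 0.33 in imiquimod and -1.77 ± 0.28 in vehicle (SD, n = 3 each), a difference of -1.09 (SE 0.22, 95% interval -1.64 to -0.54, adjusted p = 0.0218 in limma), 2.13-fold lower. The call did not survive blocking on slide (-1.43, adjusted p = 0.0534) or blocking on the replicate number (-1.09, adjusted p = 0.0586). It was lost too without imiquimod array 1 or 3 (-0.91 and -1.10, adjusted p = 0.0653 and 0.0718) and without vehicle array 1 (-0.98, adjusted p = 0.0808). The Lck probe lay on chromosome 4 from 129225846 to 129225905 in mm9.

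Zap70, which docks on the phosphorylated tails, stood at -2.86, -2.01 and -2.25 in the imiquimod arrays and at -3.08, -3.22 and -2.55 in the vehicle arrays. The groups overlapped, and the difference of 0.58 (SE 0.28, 95% interval -0.11 to 1.27, adjusted p = 0.186 in limma) did not pass. Imiquimod array 1 was the lowest of its group here as in the CD3 chains.

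The coreceptor Cd4, which binds MHC class II, gave the widest spread of the 10 genes. Its probe with 10 spots stood at -5.59, -5.60 and -5.73 in the imiquimod arrays, where it was well above background on 0 of 3, and at -2.41, 1.00 and -4.72 in the vehicle arrays, where it was so on 3 of 3. All vehicle arrays lay above all imiquimod arrays, and the vehicle arrays differed among themselves far more than the groups of any other of these genes. The 10 spots repeated closely within an array, with SDs of 0.093, 0.050 and 0.28 in the vehicle arrays and 0.32 to 0.44 in the dim imiquimod arrays. In the group means Cd4 was at least 9.35-fold lower in imiquimod, a bound set by the dimmest probes well above background. The fitted difference of -3.60 (SE 1.36, adjusted p = 0.108 in limma) did not pass, with an SD of 2.88 among the vehicle arrays. It passed without vehicle array 3 (-4.94, adjusted p = 0.0243), and was -2.08 without vehicle array 2 (adjusted p = 0.0755).

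A second Cd4 probe, on chromosome 6 from 124815401 to 124815459, did not follow the first. It stood at -6.81, -6.28 and -6.25 in the imiquimod arrays and at -6.88, -7.82 and -4.51 in the vehicle arrays, and was well above background on vehicle array 3 alone. Vehicle array 2, the highest on the 10-spot probe, was not well above background on this one.

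The marker genes of the hair follicle moved with the 10-spot Cd4 probe. Of 9 tested hair follicle markers, 6 fell in imiquimod skin and 0 rose, with a median difference of -8.08 (4 fell when blocked on slide). Krt71 and Krt25, keratins of the inner root sheath, both fell: Krt71 differed by -12.01 (adjusted p = 0.00162 in limma), and Krt25, not well above background on the imiquimod arrays, was at least 2363-fold lower there (adjusted p = 0.00203). The log2 of the summed signal of the 9 markers was -0.54 to 0.51 in the imiquimod arrays, and 9.41, 10.21 and 6.76 in vehicle arrays 1, 2 and 3. In 9 of 9 of these genes the vehicle arrays ran from array 2 through array 1 down to array 3, the order of the 10-spot Cd4 probe, as they did in 24.5% of all genes tested. Shh, the remaining marker, was well above background on 2 of 6 arrays. The part of the hair follicle in the Cd4 signal was not tested.

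**Figure D3:**
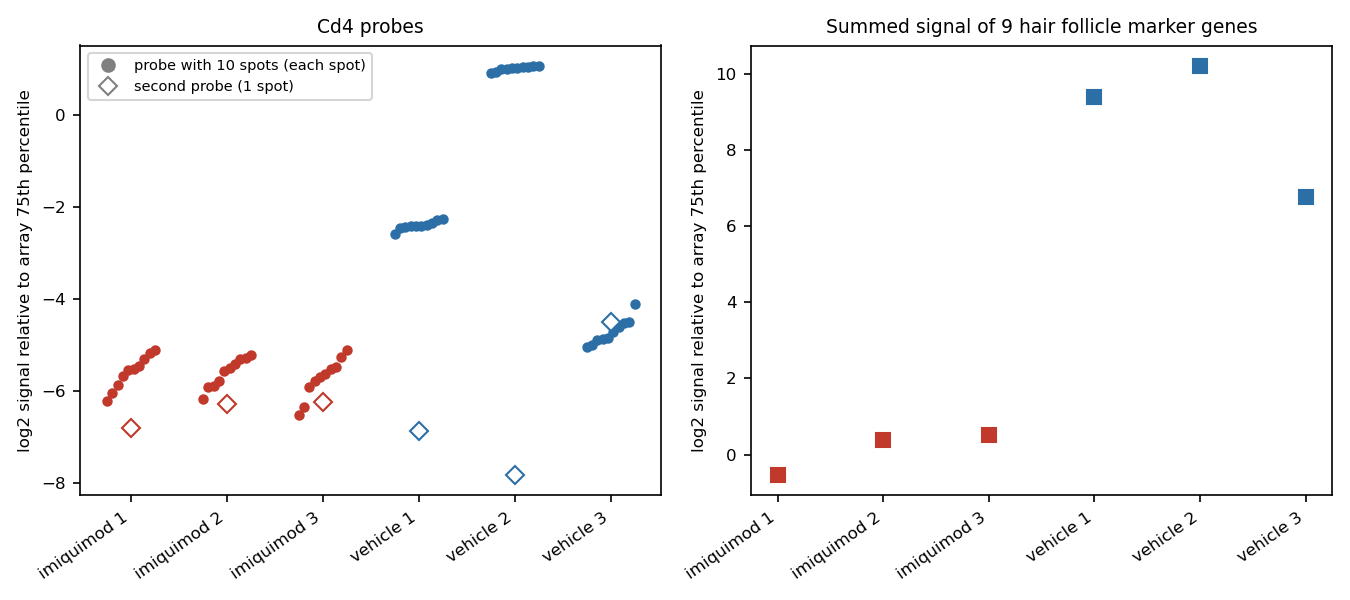
Left, log2 signal (vertical axis) of each of the 10 spots of a Cd4 probe and of a second, 1-spot Cd4 probe, by array; right, the log2 of the summed signal of 9 hair follicle markers by array. The 10 spots lie together within an array and rank the vehicle arrays 2, 1, 3, as the hair follicle sum does, while the second probe is well above background on vehicle array 3 alone.

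Cd8a, the coreceptor for MHC class I, was too dim to test with the filter used here. Without that filter it was called higher in imiquimod. Its 3 probes were well above background on 1, 0 and 0 of the 6 arrays. The brightest stood at -5.75, -4.92 and -5.06 in the imiquimod arrays and at -6.75, -7.25 and -6.87 in the vehicle arrays. Imiquimod array 2 was the one array well above background, so no fold is given. The Cd8a probe with 10 spots was well above background on none of the arrays. Cd8b1, the partner chain of Cd8a, was bright enough and rose by 1.08 (SE 0.13, adjusted p = 0.00530), at -3.47, -3.35 and -3.57 in the imiquimod arrays and -4.40, -4.75 and -4.48 in the vehicle arrays.

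Cd5, a scavenger-receptor protein that restrains receptor signalling in T cells and is also carried by a subset of B cells, rose. It stood at 0.67, 1.05 and 1.05 in the imiquimod arrays and at -0.48, -0.71 and -0.70 in the vehicle arrays. The groups did not overlap and each was tight. The means were 0.92 ± 0.22 in imiquimod and -0.63 ± 0.13 in vehicle (SD, n = 3 each), a difference of 1.55 (SE 0.15, 95% interval 1.19 to 1.92, adjusted p = 0.00279 in limma), 2.93-fold higher. It passed in 16 of 17 alternatives, at differences of 1.30 to 1.68, and was lost when only slide 1, with 1 imiquimod array, was used (1.30, adjusted p = 0.101). The probe lay on chromosome 19 from 10792701 to 10792760 in mm9.

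Some B cell markers moved with Cd5. Of 6 tested, 4 rose in imiquimod skin and 0 fell, with a median difference of 1.43. Blocked on slide 1 rose, as it did without any single imiquimod array or vehicle array 3; 2 rose without vehicle array 1 and 3 without vehicle array 2. Cr2, a complement receptor of B cells, differed by -1.72 and did not pass. Cd79b, a signalling chain of the B cell receptor, rose by 4.21 (SE 0.40, adjusted p = 0.00275), and Cd22, an inhibitory receptor of B cells, by 3.04 (adjusted p = 0.0294). Cd22 was well above background on 1 of 3 vehicle arrays, differed by 0.81 with normexp correction, and passed in 8 of 16 alternatives. It did not pass once blocked on slide (adjusted p = 0.167) or on the replicate number (adjusted p = 0.0599), nor without any single array except vehicle array 2. The log2 of the summed signal of the list was 3.82 to 4.41 in imiquimod and 3.60 to 3.73 in vehicle. Most of that sum was the marker Blnk, at 3.65, 4.17 and 3.90 in the imiquimod arrays and 3.57, 3.59 and 3.69 in the vehicle arrays. The groups of Blnk overlapped and it did not pass (0.29, adjusted p = 0.221 in limma). The defining markers Ms4a1, Pax5 and Fcrla were well above background on 0 of 6 arrays, and Cd79a on 2. Their part in the Cd5 difference was not tested.

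Thy1, a surface glycoprotein of mouse T cells that fibroblasts and other cells also carry, did not pass. It stood at 5.07, 4.84 and 5.31 in the imiquimod arrays and at 5.02, 4.65 and 5.11 in the vehicle arrays, and the groups overlapped. The difference was 0.15 (SE 0.18, 95% interval -0.30 to 0.60, adjusted p = 0.597 in limma). Its second tested probe differed by -0.29 (adjusted p = 0.322 in a fit over the 27415 tested probes, of which 11.4% were higher and 9.72% lower, 21.2% in all), so the 2 probes differ in sign and neither passed. Of 10 tested fibroblast markers, 6 rose in imiquimod skin and 0 fell. The smallest p-values were those of the collagens Col1a1 (0.89, adjusted p = 0.00361) and Col3a1 (1.11, adjusted p = 0.00903). Blocked on slide, 1 of the 10 rose and Col3a1 did not pass (1.20, adjusted p = 0.0665). Without imiquimod array 2 or 3, 3 rose, and without vehicle array 1, 2 rose.

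Counted by overlap, 1 of the 9 tested genes lay wholly higher in imiquimod (Cd5) and 3 wholly lower (Cd3e, Cd4 and Lck). Over all genes tested, 25.9% lay wholly higher and 20.7% wholly lower, 46.6% in either direction.

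Of 33 other T cell receptor signalling genes, all on the array, 29 were bright enough to test. Of these, 6 rose, 1 fell and 22 did not pass, against 13.1% of all genes higher and 10.5% lower, 23.6% in either direction. Both directions together, the share that passed was near that of all genes. By direction, the share that rose was larger and the share that fell smaller, on small counts and without a test. The median difference was 0.27. The genes that rose were Cd8b1, Lcp2, Vav1, Ptprc, Ptpn6 and Csk. Lcp2, the adaptor known as SLP-76, stood at 0.65, 1.15 and 0.57 in the imiquimod arrays and at -1.39, -1.98 and -1.03 in the vehicle arrays, a difference of 2.26 (SE 0.28, adjusted p = 0.00545). Vav1, an exchange factor that acts with it, rose by 2.01 (SE 0.30, adjusted p = 0.00837). Blocking on slide ended the calls of Lcp2 (adjusted p = 0.0614), Vav1 (adjusted p = 0.0874) and Cd8b1 (adjusted p = 0.0564). Lcp2, Vav1, Ptprc and Ptpn6 are also expressed by myeloid and other blood cells, and apart from Trat1 and Cd8b1 the genes of this list were named after their values were seen.

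Trat1, an adaptor that associates with the T cell receptor complex, was the gene that fell. It stood at -6.59, -6.90 and -7.38 in the imiquimod arrays, well above background on 0 of 3, and at -2.76, -3.34 and -1.92 in the vehicle arrays, well above background on 3 of 3. In the group means it was at least 6.04-fold lower in imiquimod (adjusted p = 0.00263 in limma). With normexp background correction its fitted difference was -1.41, against -4.29, and still passed.

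Several genes that act next to the receptor did not pass. Lat, the membrane adaptor phosphorylated by Zap70, differed by 0.22 (SE 0.31, adjusted p = 0.629), and Plcg1, a phospholipase recruited to it, by -0.041 (SE 0.098, adjusted p = 0.791). Fyn, a kinase related to Lck, differed by 0.050 (SE 0.15, adjusted p = 0.832). Cd28, Ctla4 and Ubash3a were well above background on 0 arrays and Themis on 1, and were not tested. Blocked on slide, 0 of the 29 genes rose and 1 fell, and 3 rose without imiquimod array 2, imiquimod array 3 or vehicle array 1.

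**Figure D4:**
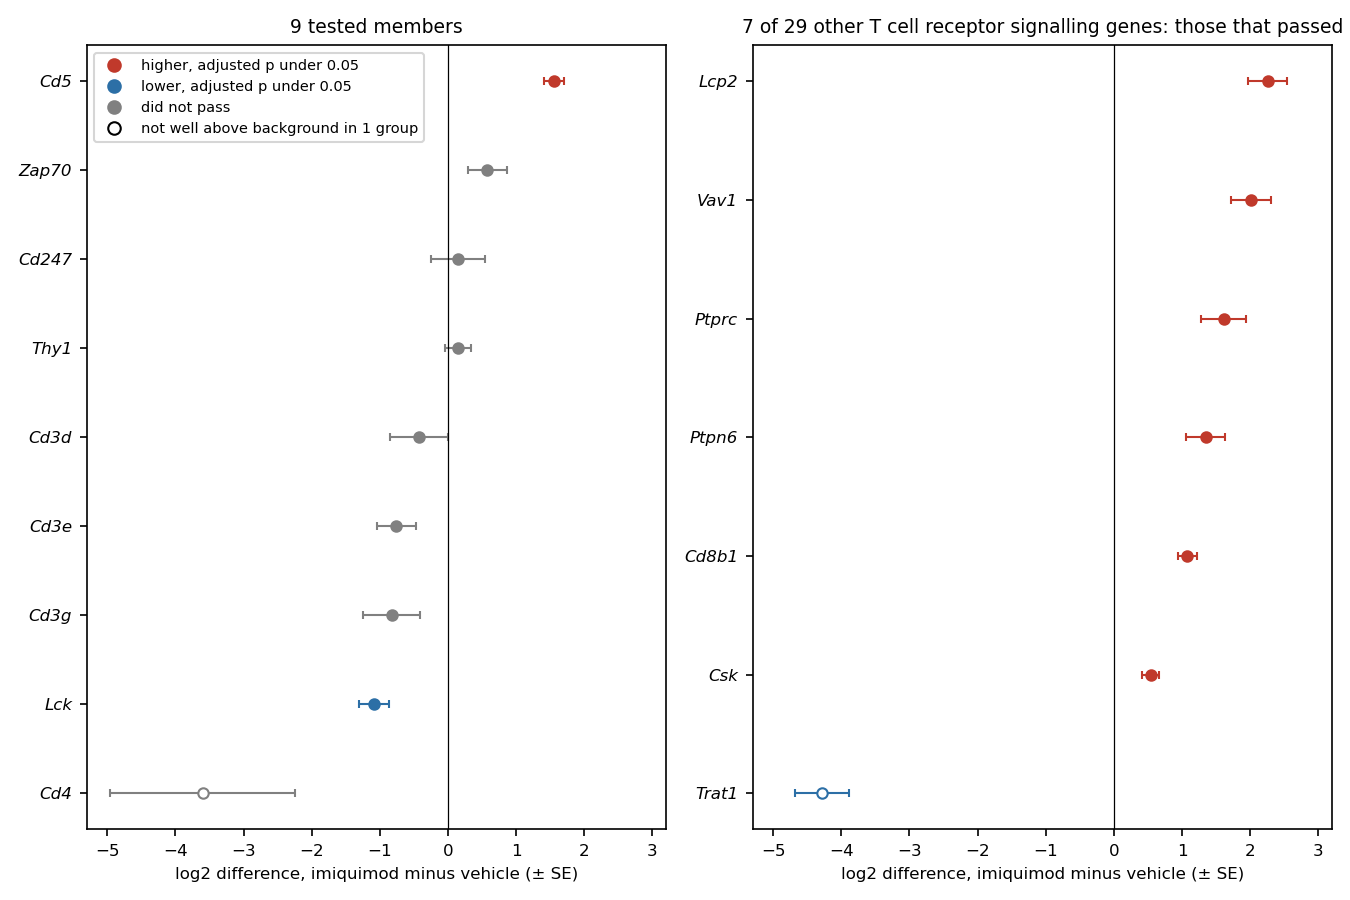
Log2 difference, imiquimod minus vehicle, with its SE (horizontal axis) for the 9 tested genes (left) and the 7 of 29 other T cell receptor signalling genes that passed (right), from limma over 17778 genes. Cd5 at 1.55 and Lck at -1.09 are the 2 of the 9 that passed, and in the wider list Lcp2 lies highest at 2.26; the open circles, Cd4 and Trat1, mark fitted differences of probes not well above background on any imiquimod array.

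Of 19 tested genes of T cell subsets and traffic, 5 rose, 8 fell and 6 did not pass, with a median difference of -0.67. Blocked on slide, 1 rose and 2 fell, and without any single imiquimod array or vehicle array 1, 2 to 3 rose and 2 to 3 fell. Gata3, a transcription factor of type 2 T helper cells that epidermis and hair follicles also use, fell by 1.50 on the log2 scale (SE 0.17, adjusted p = 0.00433). Pdcd1, the inhibitory receptor PD-1, rose by 3.16 (SE 0.46, adjusted p = 0.00834) but missed the threshold when blocked on slide (2.25, adjusted p = 0.0537). Foxp3, the factor of regulatory T cells, was well above background on 0 arrays. Of the gamma delta and epidermal T cell genes, 8 of 19 symbols matched the array, none of them a receptor gamma or delta chain, and 6 were tested. Ltb, lymphotoxin beta, rose by 1.42 (SE 0.12, adjusted p = 0.00216). Cd7 and Xcl1 fell, and 3 did not pass; blocked on slide, or without imiquimod array 1 or 3 or vehicle array 1, none fell, and without imiquimod array 2, 1 fell. Cd7, a surface protein of T and natural killer cells, fell by 1.85 on the log2 scale (SE 0.35, adjusted p = 0.0166), a call that blocking on slide ended (-2.25, adjusted p = 0.0665). It was also lost without imiquimod array 1 or 3 or vehicle array 1 (adjusted p = 0.0607, 0.0564 and 0.0644).

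Of 9 tested cytotoxic and natural killer genes, 3 rose and 0 fell, with a median difference of 0.024. Blocked on slide, 0 rose, and without vehicle array 2, 3 rose and 3 fell. Gzmb, a granzyme of cytotoxic cells, rose by 1.69 (adjusted p = 0.00558). Gzma, another granzyme, rose by 4.61 (adjusted p = 0.00810), with 1 of 3 vehicle arrays well above background, and by 2.11 with normexp correction. Blocking on slide ended both calls (adjusted p = 0.0632 for Gzmb and 0.0837 for Gzma).

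Markers of other cells moved beside these genes. Of 12 pan-leukocyte markers, 10 rose and 0 fell, with a median difference of 1.65. The log2 of their summed signal was 6.54 to 7.03 in imiquimod and 4.15 to 5.34 in vehicle. Blocked on slide, 0 of the 12 rose, and 4 rose without any single imiquimod array or vehicle array 1. Vehicle array 2 was the lowest vehicle array in 12 of 12 of them, as in the 4 CD3 chains. The other part of the CD3 pattern was not shared. Imiquimod array 1 was the lowest imiquimod array in 5 of the 12 (41.7%), near the 38.9% of all genes, against 4 of 4 chains. Rac2, a GTPase of blood cells, rose by 2.94 (adjusted p = 0.00439), and Lcp1, an actin-bundling protein of leukocytes, by 1.97 (adjusted p = 0.00810). Blocking on slide ended both calls as well (adjusted p = 0.0507 for Rac2 and 0.0841 for Lcp1). Of 12 macrophage and neutrophil markers, 10 rose and 0 fell, with Mmp9 at 2.80 (adjusted p = 0.00266) and Cd14 at 2.39 (adjusted p = 0.00324). Blocked on slide 3 of these rose, and 6 rose without imiquimod array 1 or 2 or vehicle array 1.

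Of 9 tested dendritic and Langerhans cell markers, 0 rose and 3 fell: Epcam (-1.32, adjusted p = 0.00331), Cd209a (-2.02, adjusted p = 0.00927) and Cd207, the langerin of Langerhans cells (-1.89, adjusted p = 0.0137). Blocked on slide, 1 of the 9 fell, which was Epcam. Which cells of the skin gave the Epcam signal was not tested. Cd209a was well above background on 0 imiquimod arrays and at least 2.00-fold lower there, a call lost after blocking on slide (adjusted p = 0.0884) and after normexp correction of the background (-0.43, adjusted p = 0.118). Of 8 endothelial markers 6 rose and 0 fell, and 2 rose when blocked on slide. The smallest p-values were those of Egfl7 (1.20, adjusted p = 0.00344) and Tie1 (1.47, adjusted p = 0.00474). Of 9 keratinocyte markers 3 rose and 1 fell (1 and 1 when blocked on slide), with Krt14 at 2.25 (adjusted p = 0.00155) and Krt15 at -2.12 (adjusted p = 0.00937). The part of these cells in the values of the 10 genes was not tested.

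**Figure D5:**
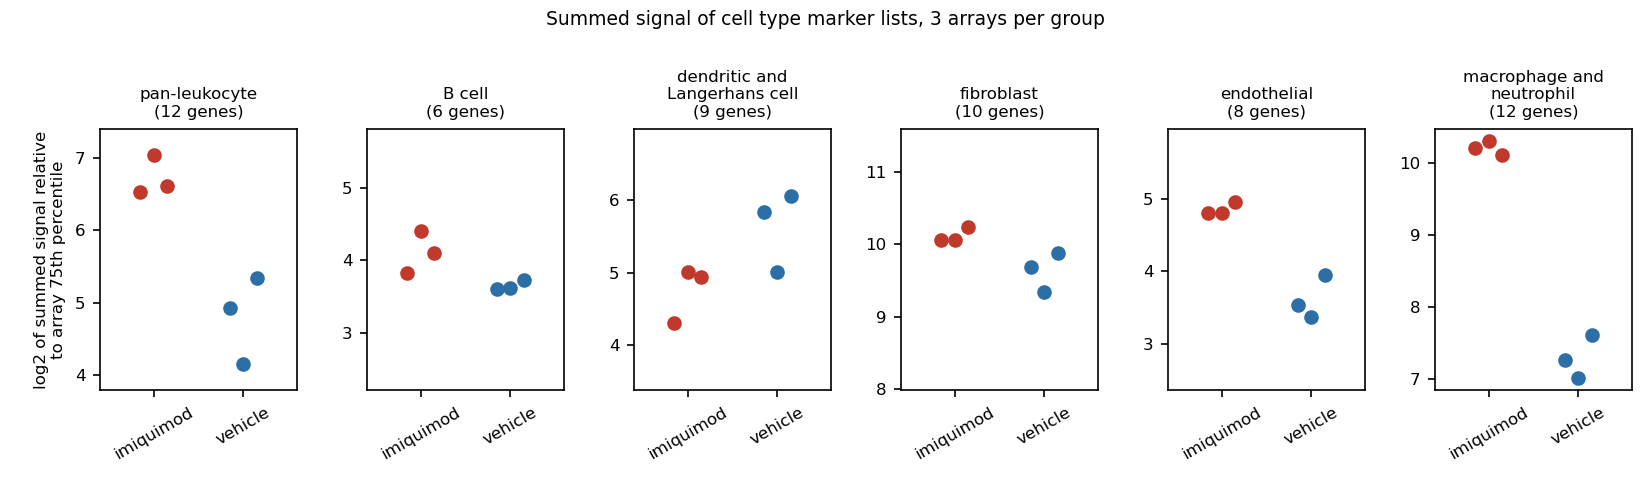
Log2 of the summed signal, relative to the array's 75th percentile (vertical axes, each with its own range), of the tested genes of 6 marker lists, with 1 point per array. Pan-leukocyte, B cell, fibroblast, endothelial, and macrophage and neutrophil sums lie higher on every imiquimod array than on any vehicle array, and the dendritic and Langerhans cell sums lie lower, narrowly so between imiquimod array 2 and vehicle array 2. A sum follows its brightest genes. The B cell sum is mostly Blnk and the dendritic and Langerhans cell sum mostly Cd74, and both genes overlap between groups and did not pass. Brightest in the macrophage and neutrophil list are S100a9 on the imiquimod arrays and Lyz2 on the vehicle arrays.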

How the data were processed

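Each sample has a deposited scanner file, whose background-corrected spot values are an intensity on a linear scale, written by Agilent Feature Extraction 10.7.3.1 per the file headers. The submitters' processing notes give 9.1 as the version. A table of log2 values, also deposited by the authors, was used to check the grouping and as an alternative. How it was normalized is not given in the sources used here.

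Control spots and 322 spots flagged as outliers on any array were left out, spots of a probe were averaged on the log2 scale, and each array's 75th percentile was subtracted. Probes well above background on at least 3 of 6 arrays were tested (27415), and a gene was represented by its brightest tested probe. A probe of several spots counted as well above background where at least 50% of them were. The comparison used lmFit and eBayes of limma 3.58.1 (R 4.3.3), two-sided and without covariates, with Benjamini-Hochberg adjustment at 0.05. The steps were tested on simulated data. Folds written as "at least" take, for each array where the probe was dim, the higher of the probe's own signal and the dimmest signal called above background there.

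The 10 genes and all lists were chosen with earlier results of these data known. Named beside them are the 2 genes of smallest p of each list, the 5 genes of most similar profile, and genes chosen after their values were seen. The last are marked in the text or are Blnk, Cd74, Cd207, Cr2, Lyz2, S100a9, Xcl1 and genes too dim to test. The correlation of deviations of same-numbered arrays was -0.0872, 0.0676 and 0.0854. These low values gave no sign of pairing. Samples handled together need not share deviations, so whether the replicate numbers pair the samples was not settled. One gene of the wider signalling list is not reported here by name. The number of arrays limits the precision.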

Additional observations from a re-analysis of the deposited data

How the results depend on the processing

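Read as filed, the differences were 0.43 (Cd3d), 0.76 (Cd3e), 0.83 (Cd3g), -0.15 (Cd247), 3.60 (Cd4), -1.55 (Cd5), 1.09 (Lck), -0.58 (Zap70) and -0.15 (Thy1), and 1 of the 29 other signalling genes was higher and 6 lower, by construction. Under the other alternatives the sign of Cd247 turned when blocked on slide and within slide 1 (-0.60 in both) and without imiquimod array 2 (-0.077) or vehicle array 2 (-0.092), in a range of -0.092 to 0.52 over the arrays left out, that of Thy1 with the mean of its probes (-0.074), and that of Il2rb without imiquimod array 1 (0.013, in a range of -0.50 to 0.013). Blocking on slide left 541 genes higher and 518 lower, 0 of the 9 genes lower, and 0 of the 29 other signalling genes higher. Within slide 1, with 1 imiquimod array, whose spread is assumed to be that of the vehicle arrays, 7 genes were higher and 1 lower, and 0 of the 9 and 0 of the 29 passed in either direction. With the replicate number as a block (replicate block), 1164 genes were higher and 1043 lower, 0 of the 9 lower and 3 of the 29 higher. Without a filter on dim probes 2 of the 10 genes were higher, Cd5 and Cd8a. The Cd8a call rests on dim signal, well above background on 1 of 6 arrays. With a filter on all 6 arrays 0 of the 29 were lower, because Trat1 was no longer tested. Leaving out 1 array at a time gave 944 to 2514 genes higher and 745 to 2215 lower, 0 to 2 of the 9 lower, and 3 to 6 of the 29 higher and 1 to 2 lower. Without both vehicle arrays of status evaluate, chosen after seeing the data, Cd4 passed (-3.23, adjusted p = 0.00262) and Lck did not (-1.31, adjusted p = 0.0552), and the spread came from the imiquimod arrays alone. The dim imiquimod signals of Cd4 and Trat1 limit their differences to bounds, and Cd8a was too dim in both groups for a fold.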
